A study of Mus musculus with 18 samples.

Results

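Recruited wound macrophage genes are described here in mouse hearts at day 7 after sham surgery or ischemia-reperfusion. The set holds 10 genes, taken from a fixed list of symbols out of 25731 in the count table, and all 10 were among the 15088 genes that passed the filter on low counts. They are Trem2, Gpnmb, Fabp5, Cd9, Spp1, Lgals3, Arg1, Chil3, Ly6c2 and Plac8. The set was chosen with the difference between injured and sham hearts in view, since Arg1 was among the largest rises there, so that difference is given as a description with no test. The animals were 18 adult male C57BL/6 mice, all WT. SHAM hearts had sham surgery, IR hearts had ischemia-reperfusion (blood flow to the heart muscle stopped and then restored), and IR+Decursin hearts had the same injury and the plant coumarin decursin, with 6 animals in each group and 1 library per heart. The sources used here do not give the dose or route of decursin, the length of ischemia or the part of the heart taken. The labels' 3 batches coincide with the 3 groups, so a difference between groups cannot be told apart from one between batches.

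After an infarct, blood monocytes enter the heart, where they become macrophages that clear dead cells and debris and support the scar. Monocytes that have just left the blood carry Ly6c2 and Plac8. As they mature in a wound, macrophages can make arginase 1 and the chitinase-like lectin Chil3, and those that take up much lipid and debris raise Trem2, Gpnmb, Fabp5, Cd9, Lgals3 and Spp1. In bulk tissue RNA, fewer cells of a type and less RNA per cell cannot be told apart.

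Library totals ran from 27.5 to 35.0 M counts. In 3 libraries, IR 3, IR 4 and IR+Decursin 2, Xist (the RNA of the inactive X chromosome of females) had 14072 to 14232 counts, against at most 8 elsewhere, although all animals are labelled male. The gene model Gm26917 took 7.54% of the counts of IR+Decursin 6 and 0.915% of IR 1, and 0.0558 to 0.166% of each of the other 16 libraries. IR+Decursin 6 also lay near SHAM hearts for other cell types. The 12 activated fibroblast markers summed to 714 CPM there (CPM, counts per 1 M, after TMM scaling), where SHAM ranged from 640 to 780 and IR from 6414 to 10241. The 12 cardiomyocyte markers summed to 91382 CPM in it, where SHAM ranged from 88040 to 102295 and IR from 48038 to 65498.

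Sequence upstream of the start was available for 8 of the 10 genes, in 11 windows of 300 bases from RefSeq (build GRCm38.p6, older than the build of the counts). Arg1 and Fabp5 had no entry. The 250 bases before the start are printed for 1 gene of each role in the set, 4 in all that were high together in IR hearts, each chosen because it holds a match to a myeloid or cytokine-response motif (in capitals). The Trem2 stretch lies at chr17:48346151-48346400 (+ strand), Spp1 at chr5:104434861-104435110 (+, 1 of 2 annotated starts), Chil3 at chr3:106167565-106167814 (- strand) and Ly6c2 at chr15:75111938-75112187 (-, 1 of 2 annotated starts).
Trem2: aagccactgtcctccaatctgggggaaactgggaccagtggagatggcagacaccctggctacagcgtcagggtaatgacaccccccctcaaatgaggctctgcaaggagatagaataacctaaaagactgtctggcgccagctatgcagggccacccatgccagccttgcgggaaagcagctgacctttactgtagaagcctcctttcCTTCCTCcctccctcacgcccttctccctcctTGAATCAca
Spp1: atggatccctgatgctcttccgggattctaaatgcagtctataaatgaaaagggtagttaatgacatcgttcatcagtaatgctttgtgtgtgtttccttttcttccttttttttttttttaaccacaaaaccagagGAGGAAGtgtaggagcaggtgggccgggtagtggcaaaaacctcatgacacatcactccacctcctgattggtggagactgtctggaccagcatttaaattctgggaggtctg
Chil3: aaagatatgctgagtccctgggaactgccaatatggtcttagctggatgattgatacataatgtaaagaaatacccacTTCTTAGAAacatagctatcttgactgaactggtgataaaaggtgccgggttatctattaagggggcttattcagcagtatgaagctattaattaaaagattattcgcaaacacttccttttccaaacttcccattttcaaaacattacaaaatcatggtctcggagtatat
Ly6c2: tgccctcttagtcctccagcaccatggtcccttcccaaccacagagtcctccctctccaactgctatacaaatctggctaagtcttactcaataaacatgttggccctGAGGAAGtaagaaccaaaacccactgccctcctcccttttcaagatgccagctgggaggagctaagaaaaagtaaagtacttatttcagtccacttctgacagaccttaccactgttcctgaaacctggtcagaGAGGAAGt
In Trem2 the capitals mark a PU.1 match (GAGGAAG, read on the other strand) at position -41 and an AP-1 match (TGANTCA) at -9, counted back from the start. PU.1 is the master regulator of myeloid cells, and AP-1 is a stress-response factor pair. Spp1 holds the PU.1 letters at -113, and Ly6c2 holds them at -142 and -8. Chil3 holds the STAT letters (TTCNNNGAA) at -172. Searched on both strands over the whole 300 bases, PU.1 letters were in 4 of the 11 windows (of Ly6c2, Spp1 and Trem2), against 13.6% of all 32851 windows. AP-1 letters were in 2 of 11 (Gpnmb and Trem2, against 7.81%), the C/EBP letters TTGCNNAA in 3 of 11 (Plac8, Spp1 and Trem2, 10.8%), STAT in 1 of 11 (8.30%), the STAT6 letters (TTC and GAA with 4 bases between) in 2 of 11 (Lgals3 and Plac8, 6.95%) and the E-box CACGTG in 0 of 11 (7.15%). The 2 windows of Ly6c2 overlap, so its PU.1 letters count in both. The C/EBP letters of Spp1 are in its other window, and those of Trem2 lie past the start, so neither is printed. None of the matches in these genes overlapped another, and a match describes letters, not a bound site.

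Trem2 encodes a lipid-sensing receptor that signals through Tyrobp. In SHAM hearts it ranged from 1.66 to 3.23 CPM (median 2.10), in IR from 11.7 to 32.5 (median 22.9), and in IR+Decursin from 3.42 to 19.9 (median 14.1). No IR or IR+Decursin heart overlapped the SHAM range, and IR+Decursin 6 lay just above it. The log2 fold change was 3.35 ± 0.36 (SE) in IR against SHAM and 2.55 ± 0.35 in IR+Decursin against SHAM (adjusted p = 0.000266, 6 of 6 treated libraries above every SHAM library). Against IR, Trem2 had a log2 fold change of -0.80 ± 0.31 in IR+Decursin (95% interval -1.47 to -0.13, adjusted p = 0.209, not called). Without IR+Decursin 6 that value was -0.60 and not called, the value nearest to 0 with any 1 library left out.

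Gpnmb encodes a transmembrane glycoprotein of lysosome-rich macrophages. It ranged from 1.38 to 2.77 CPM in SHAM (median 1.79), from 20.2 to 132 in IR (median 66.8) and from 3.07 to 85.1 in IR+Decursin (median 16). IR+Decursin 1 was at 85.1 CPM while the other 5 treated hearts were at 3.07 to 33.7, so 1 library carried much of the treated mean. Gpnmb differed by a log2 fold change of 5.16 ± 0.75 in IR and 3.77 ± 0.72 in IR+Decursin against SHAM (adjusted p = 0.00170, 6 of 6 above SHAM), or 3.0 without IR+Decursin 1 (adjusted p = 0.00354). Treated hearts differed from IR by -1.39 ± 0.61 (interval -2.68 to -0.10, adjusted p = 0.249). Without IR+Decursin 1 that value was -2.16 (adjusted p = 0.0361), and without IR 6 it was -1.13 and not called.

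Fabp5, a cytosolic fatty acid carrier, and Cd9, a membrane tetraspanin, are made by many cells of the heart and were already high in SHAM. Fabp5 ranged from 33.0 to 49.6 CPM in SHAM (median 38.9), from 53.0 to 111 in IR (median 71.8) and from 34.2 to 90.9 in IR+Decursin (median 51.1). Its log2 fold change was 0.86 ± 0.21 in IR, and 0.41 ± 0.21 in IR+Decursin against SHAM, which did not pass (interval -0.04 to 0.87, adjusted p = 0.158, 3 of 6 above SHAM). The difference of Fabp5 from IR was -0.45 ± 0.21 (interval -0.90 to 0.00, adjusted p = 0.276), or -0.65 without IR+Decursin 1 (adjusted p = 0.0449). Without IR 6 that difference was -0.30 and not called. Cd9 was the flattest gene of the set. It ranged from 36.3 to 50.3 CPM in SHAM (median 46.3), 49.1 to 61.8 in IR (median 53.4) and 39.2 to 55.0 in IR+Decursin (median 49.9), so all 3 ranges overlapped. The log2 fold changes of Cd9 were 0.32 ± 0.10 in IR, and 0.15 ± 0.10 in IR+Decursin against SHAM (interval -0.05 to 0.36, adjusted p = 0.238) and -0.17 ± 0.10 against IR (interval -0.37 to 0.04, adjusted p = 0.355).

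These small differences moved with the scaling. Scaling by total counts raised the median of all genes to 0.31 in IR and to 0.22 in IR+Decursin against SHAM, where TMM factors left it at 0.00. With total counts, 92.7% of all calls in IR+Decursin against SHAM were upward against 59.9% with TMM factors, and 86.9% against 53.8% in IR against SHAM. On that scale both genes were called in IR+Decursin against SHAM, Fabp5 at 0.65 (adjusted p = 0.0451) and Cd9 at 0.38 (adjusted p = 0.0145). Cd9 was also called on the FPKM values, which carry the same scaling (0.37 on log2(FPKM + 1), adjusted p = 0.0222). Relative to the median of all genes, Fabp5 was 0.43 higher and Cd9 0.16 higher with total counts, and 0.41 and 0.16 higher with TMM factors.

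**Figure D1:**
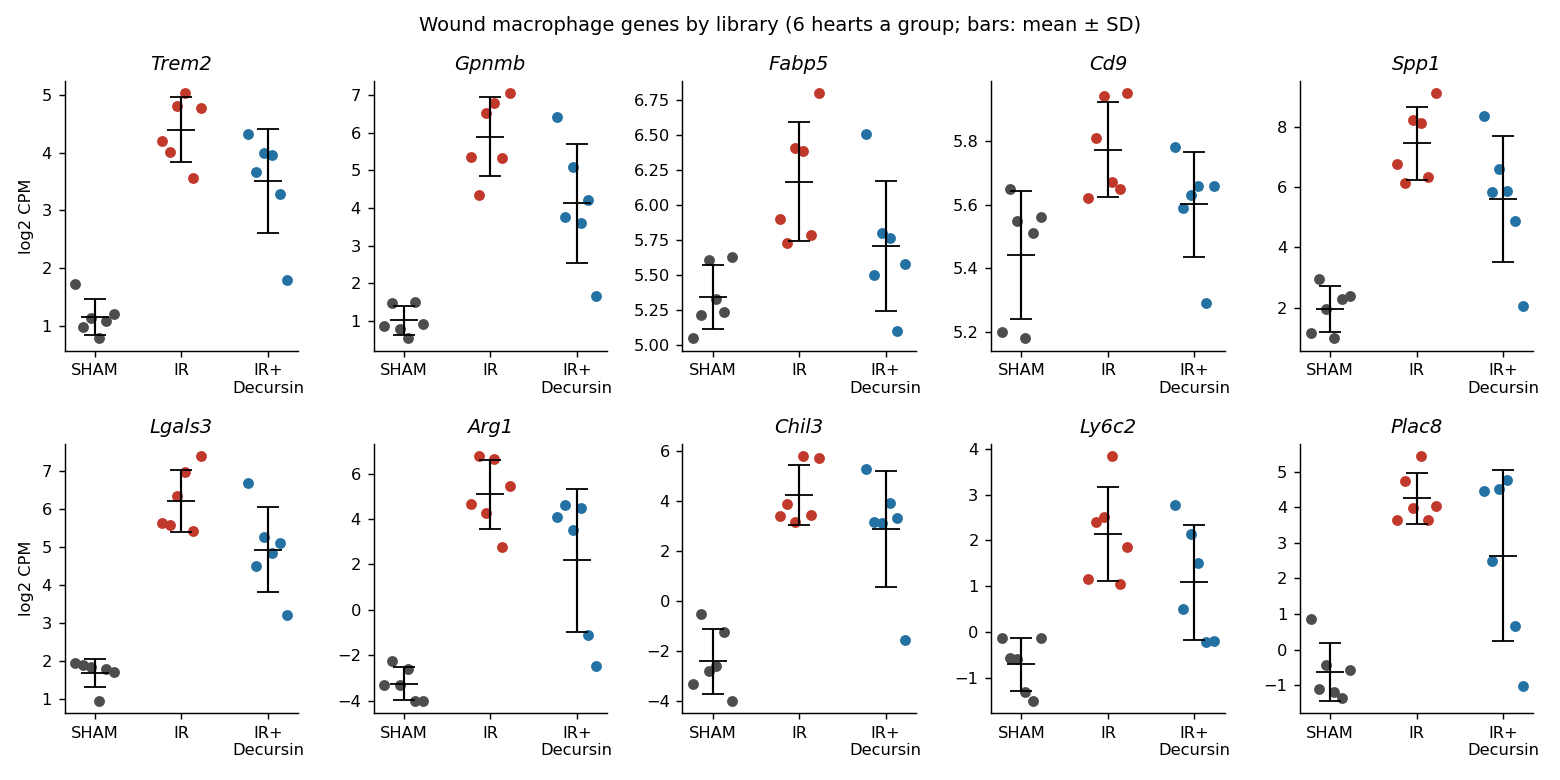
Levels of the 10 genes as log2 CPM, with 1 point per heart library in SHAM, IR and IR+Decursin and bars for the mean ± SD of 6. The y axes differ between panels and do not start at 0. IR libraries lie above every SHAM library for every gene but Cd9, and treated libraries overlap the SHAM range for 7 genes, all but Trem2, Gpnmb and Lgals3.

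Spp1 encodes osteopontin, a secreted matrix protein that binds integrins and Cd44. It ranged from 1.90 to 7.66 CPM in SHAM (median 4.30), from 71.2 to 560 in IR (median 196) and from 4.12 to 330 in IR+Decursin (median 58.2). The treated hearts thus spanned from inside the SHAM range, in IR+Decursin 6, to well inside the IR range, in IR+Decursin 1. Spp1 had a log2 fold change of 5.79 ± 0.94 in IR and 4.50 ± 0.89 in IR+Decursin against SHAM (adjusted p = 0.00206, 5 of 6 above SHAM), or 3.54 without IR+Decursin 1 (adjusted p = 0.00491). Its difference from IR was -1.29 ± 0.76 (interval -2.90 to 0.32, adjusted p = 0.376). Without IR+Decursin 1 that difference was -2.24 (adjusted p = 0.0672), and without IR 6 it was -0.82 and not called.

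Lgals3 encodes galectin-3, a sugar-binding protein of activated macrophages. In SHAM it ranged from 1.87 to 3.77 CPM (median 3.47), in IR from 42.9 to 167 (median 64.6) and in IR+Decursin from 9.22 to 102 (median 31.5). Even the lowest treated heart lay above every SHAM heart, and 5 of 6 treated hearts lay below every IR heart. Lgals3 had a log2 fold change of 4.72 ± 0.56 in IR and 3.60 ± 0.54 in IR+Decursin against SHAM (adjusted p = 0.000438). Its difference from IR was -1.12 ± 0.46 (interval -2.11 to -0.13, adjusted p = 0.231), or -1.68 without IR+Decursin 1 (adjusted p = 0.0305). Without IR 6 that difference was -0.81 and not called.

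Arg1 encodes arginase 1, which turns arginine into ornithine, the precursor of proline and polyamines. All 6 SHAM libraries together held 9 counts of it, those of IR 10800 and those of IR+Decursin 2765. IR hearts ranged from 6.75 to 110 CPM (median 34.6) and SHAM hearts from 0 to 0.146. Among treated hearts, IR+Decursin 1 to 4 were at 11.3 to 24.2 CPM, IR+Decursin 5 at 0.401 and IR+Decursin 6 at 0.117. IR+Decursin 6 had 3 counts of Arg1, within the 0 to 4 counts of the SHAM libraries. The fitted log2 fold change was 9.78 ± 1.48 in IR and 7.77 ± 1.53 in IR+Decursin against SHAM (adjusted p = 0.00205, 5 of 6 above SHAM). With limma voom and quality weights Arg1 was 7.21 in IR+Decursin against SHAM and was not called (adjusted p = 0.130). No SHAM library and only 5 of 6 treated libraries reached the minimum count of the filter, so Arg1 entered the tests through its 6 IR libraries, where it is high. Against IR, Arg1 showed the largest difference of the set, -2.01 ± 0.82 (interval -3.75 to -0.26, adjusted p = 0.228). Arg1 was picked for its height in the same IR libraries, which this comparison uses again.

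Chil3 encodes Ym1, a lectin of alternatively activated macrophages that young monocytes and neutrophils also make. Its counts summed to 34 over the SHAM libraries, 5572 over IR and 2942 over IR+Decursin. IR hearts ranged from 8.75 to 55.2 CPM (median 12.7), and treated hearts from 0.272 to 38.3 (median 9.41). IR+Decursin 6, at 0.272 CPM and 7 counts, was the only treated heart inside the SHAM range of 0 to 0.620 CPM. IR+Decursin 5 was at 9.91 CPM of Chil3, a level like those of the lower IR hearts, while its Arg1 was near the SHAM range. The log2 fold change of Chil3 was 6.93 ± 1.08 in IR (7.66 without SHAM 2) and 6.03 ± 1.07 in IR+Decursin against SHAM (adjusted p = 0.00113, 5 of 6 above SHAM). Without IR+Decursin 1 it was 5.36 and without SHAM 2 it was 6.75, called in both fits (adjusted p = 0.00262 and 0.00263). Its difference from IR was -0.91 ± 0.70 (interval -2.41 to 0.60, adjusted p = 0.512), or -1.57 without IR+Decursin 1 (adjusted p = 0.168). Without IR 4 that difference was -0.52 and not called. Only 2 of 6 SHAM libraries reached the minimum count of the filter.

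Ly6c2 encodes an isoform of the Ly6C surface antigen of inflammatory monocytes, and Plac8 a small cysteine-rich protein of monocytes, neutrophils and other young myeloid cells. Ly6c2 was the lowest of the set by mean CPM in both injured groups. It ranged from 0.293 to 0.860 CPM in SHAM (median 0.613), from 2.02 to 14.2 in IR (median 4.39) and from 0.803 to 6.78 in IR+Decursin (median 2.07). IR+Decursin 5 and IR+Decursin 6 lay inside the SHAM range. The log2 fold change of Ly6c2 was 3.20 ± 0.61 in IR (2.44 without the libraries with over 1000 Xist counts) and 2.24 ± 0.61 in IR+Decursin against SHAM (adjusted p = 0.0109, 4 of 6 above SHAM). Against IR it was -0.95 ± 0.54 (interval -2.10 to 0.19, adjusted p = 0.354), and without the libraries with over 1000 Xist counts it was -0.06 (adjusted p = 0.982). Its close relative Ly6c1, a gene of capillary endothelium, was at 182 ± 21.6 CPM (mean ± SD, n = 6) in SHAM, 158 ± 26.1 in IR, and 170 ± 25.4 with decursin after IR. How reads that match both genes were counted is not stated, so the level of Ly6c2 is uncertain. Ly6c1 itself did not pass in IR+Decursin against SHAM (-0.09 ± 0.12, adjusted p = 0.579). For Chil3, reads shared with its relative Chil4 could not be judged, since Chil4 was not analysed here. Another relative, Chil1, was at 1.68 ± 1.57, 2.58 ± 2.77 and 2.27 ± 1.27 CPM in the 3 groups. The levels of Chil1 do not settle how shared reads were counted.

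Plac8 ranged from 0.326 to 1.75 CPM in SHAM (median 0.510), from 12.4 to 43.3 in IR (median 16) and from 0.428 to 27.3 in IR+Decursin (median 13.8). IR+Decursin 1, 3 and 4 were at 22.0 to 27.3 CPM, each above at least 4 of the 6 IR hearts. IR+Decursin 5 at 1.51 and IR+Decursin 6 at 0.428 lay inside the SHAM range. Plac8 had a log2 fold change of 4.95 ± 0.88 in IR and of 4.28 ± 0.87 in IR+Decursin against SHAM (adjusted p = 0.00229, 4 of 6 above SHAM). Its difference from IR was -0.67 ± 0.68 (interval -2.11 to 0.77, adjusted p = 0.621).

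In IR, 9 of the 10 genes had every library above every SHAM library, where 15.4% of all 15088 tested genes did. Nothing is read from that count, since the set was chosen on this contrast. The exception was Cd9, for which 4 of 6 IR libraries lay above SHAM. The median log2 fold change of the 10 was 4.84, from 0.32 to 9.78, against 0.00 for all tested genes. In IR+Decursin against SHAM, which shares the SHAM libraries with the contrast that chose the set, 8 of 10 genes rose by edgeR's quasi-likelihood test and 0 fell, where 17.5% of all tested genes were called upward. Fabp5 and Cd9 did not pass. The 8 include Arg1, which the choice of the set used and which entered the tests only through its IR libraries. Among the other 9 genes 7 were called, and 7 were called where only these 2 groups were fitted, Arg1 then being filtered out. The median of the 10 was 3.69 (0.00 over all tested genes). Trem2, Gpnmb and Lgals3 had every treated library above every SHAM library, as did 4.44% of all tested genes. Without IR+Decursin 6 this held for 6 of the 10 and for 11.0% of the genes tested then.

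In IR+Decursin against IR, 0 of the 10 genes were called, and 0 of all 15088 tested genes were (0% called in either direction). All 10 estimates were below 0, with a median of -0.93 and a range of -2.01 to -0.17. Of all tested genes, 53.0% were below 0, with a median of -0.02. These estimates include IR+Decursin 6, the treated library that lay near SHAM hearts. At an unadjusted p under 0.05, 5 of the 10 were lower (Trem2, Gpnmb, Fabp5, Lgals3 and Arg1), against 7.87% of all tested genes. Arg1, counted among these 5, was picked for its height in the same IR libraries and entered the tests only through them. The 10 genes are not independent of each other, and this comparison shares the IR libraries with the contrast that chose them. DESeq2 called 0 of the 10, while it called 83 genes of the whole table downward (0.550%) and 334 upward (2.21%). Without IR+Decursin 1, edgeR called Gpnmb, Fabp5 and Lgals3 downward, 3 of 10, against 1.84% of all genes tested then. Leaving out any other single library gave no call among the 10. No gene of the set had its 6 treated libraries all below or all above the 6 IR libraries, where 0.245% of all tested genes lay wholly below and 0.272% wholly above.

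**Figure D2:**
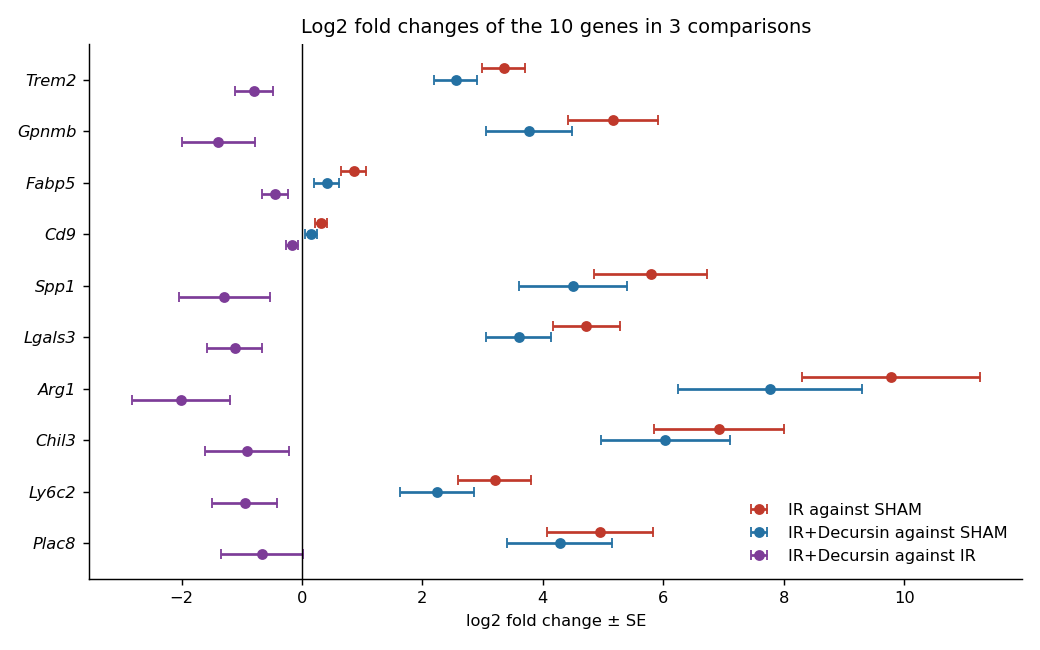
Log2 fold changes with their SE for the 10 genes in IR against SHAM, IR+Decursin against SHAM and IR+Decursin against IR. The changes against SHAM run from near 0 for Cd9 to 9.78 for Arg1 in IR, and all 10 estimates of treated against untreated injury lie between -2.01 and -0.17, with none called.

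Read library by library, the treated hearts spanned nearly the whole distance from SHAM to IR. IR+Decursin 1 had all 10 genes above every SHAM library and was the highest treated library for 8 of them. IR+Decursin 6 was the lowest treated library for 7 genes, and 6 of its genes (Spp1, Fabp5, Arg1, Chil3, Ly6c2 and Plac8) did not exceed the SHAM range. IR+Decursin 5 had 6 genes above SHAM, with Fabp5, Cd9, Ly6c2 and Plac8 not above it. The median deviation of the 10 genes from the SHAM mean was 0.57 on the log2 scale in IR+Decursin 6 and 2.14 in IR+Decursin 5, and 2.79 to 5.04 in the other 4 treated hearts. In IR hearts it ran from 3.61 to 5.52. The SD of log2 CPM over the 6 libraries was larger in IR+Decursin than in IR for all 10 genes, for example 3.14 against 1.52 for Arg1, 2.40 against 0.71 for Plac8 and 0.90 against 0.57 for Trem2. This difference in spread was not tested.

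**Figure D3:**
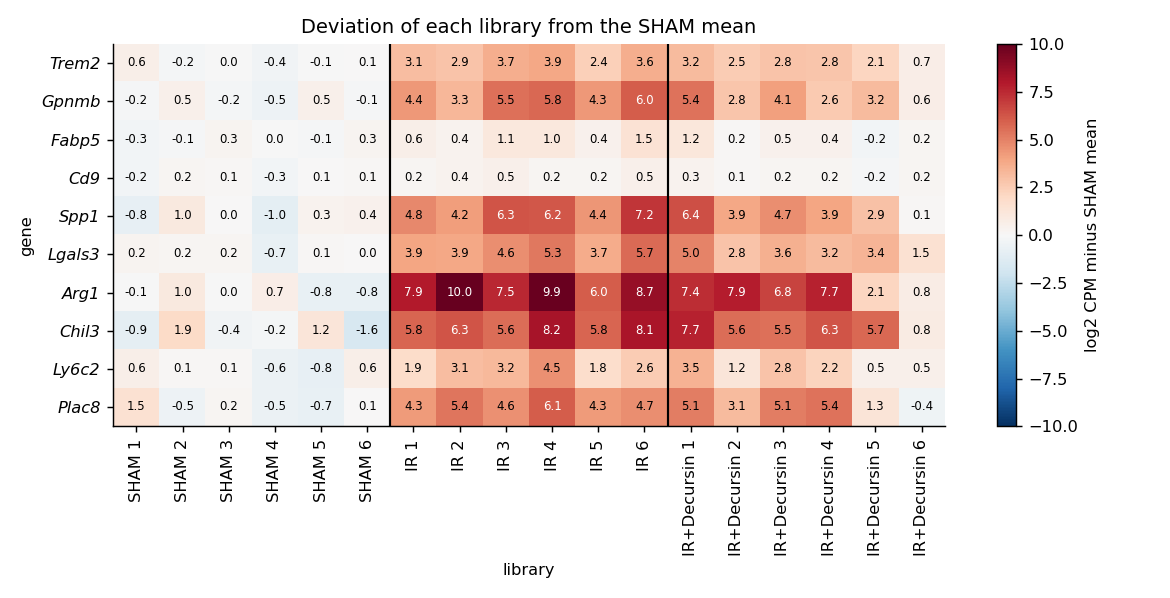
Log2 CPM of each library minus the SHAM mean, for the 10 genes (rows) in 18 libraries (columns), with the value printed in each cell. IR+Decursin 6 lies between -0.40 and 1.52 from the SHAM mean for all 10 genes, and IR+Decursin 5 is closer to it for Arg1, Ly6c2 and Plac8 than for Chil3 or Gpnmb.

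General macrophage markers moved with the set. The mean log2 CPM of 14 markers, among them the surface receptor gene Adgre1 and the complement genes C1qa to C1qc, was 4.48 ± 0.19 in SHAM, 6.49 ± 0.41 in IR, and 5.79 ± 0.68 with decursin after IR (mean ± SD, n = 6). Of the treated hearts, IR+Decursin 6 had the lowest value at 4.67, beside a highest SHAM value of 4.66, and IR+Decursin 1 the highest at 6.48. All 14 markers rose in IR+Decursin against SHAM, where 17.5% of all tested genes did.

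Set against these markers, the 10 genes differed among themselves. The log2 level of Fabp5 and Cd9 relative to the markers was 1.18 and 1.68 lower in IR than in SHAM. Trem2 was 1.24 and Ly6c2 0.82 higher in IR on this scale. Arg1 stood 6.34 higher, Chil3 4.64, Spp1 3.51, Gpnmb 2.88, Plac8 2.87 and Lgals3 2.52 higher. Relative to the markers, the level in IR+Decursin was 2.22 below that in IR for Arg1, 1.16 for Spp1 and 1.08 for Gpnmb. The same difference was -0.91 for Plac8, -0.66 for Chil3, -0.58 for Lgals3, -0.35 for Ly6c2 and -0.19 for Trem2. Fabp5 and Cd9 went the other way, at 0.24 and 0.53. The ranges of all 10 genes overlapped between IR and IR+Decursin. For Ly6c2 only 3 of 6 IR hearts and 2 of 6 treated hearts lay above every SHAM heart on this relative scale. For Trem2 and Lgals3 all 6 did in both groups.

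**Figure D4:**
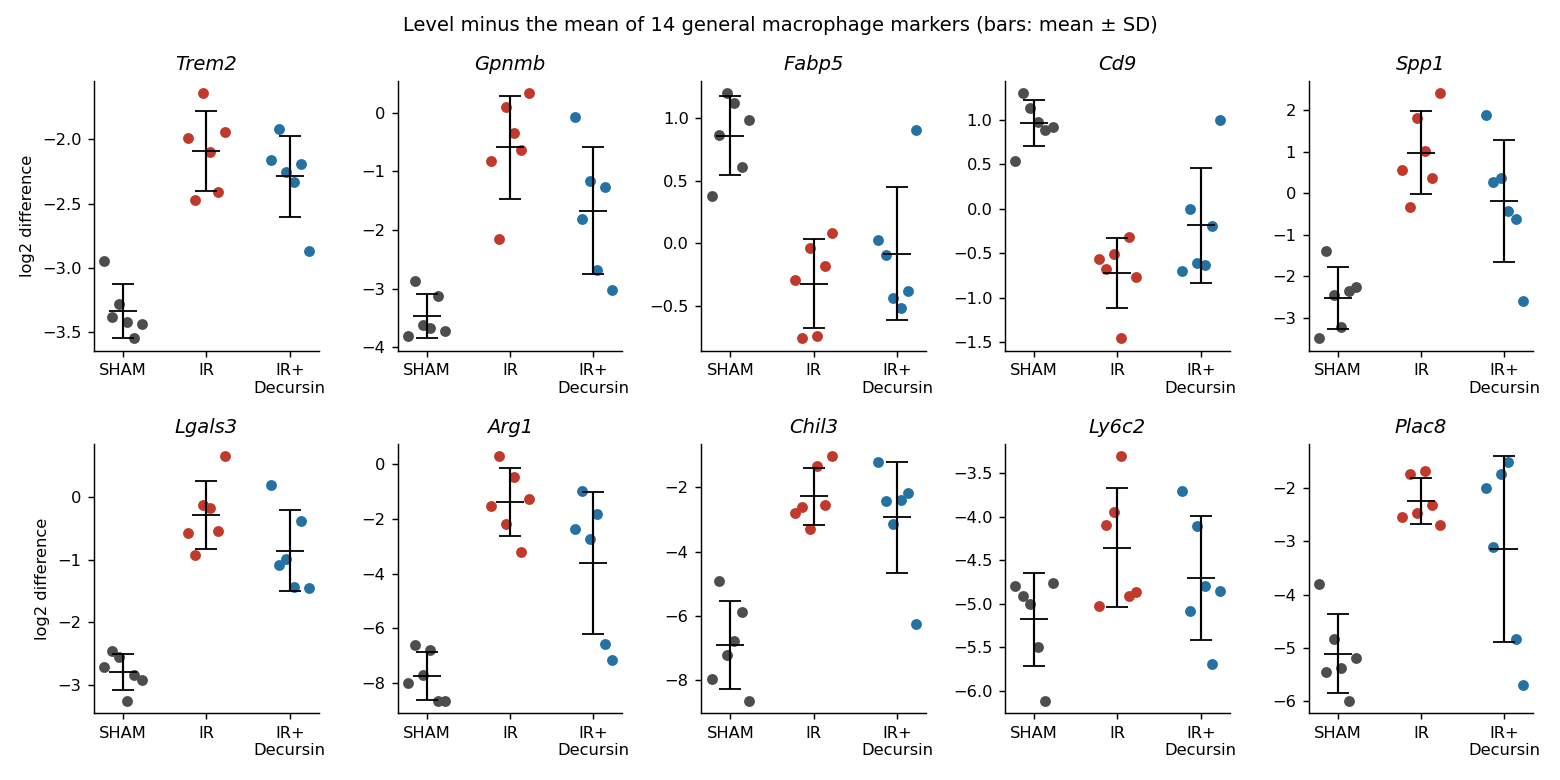
Log2 CPM of each gene minus the mean log2 CPM of 14 general macrophage markers in the same library, with bars for the mean ± SD of 6. The y axes differ between panels and do not start at 0. Fabp5 and Cd9 lie lower in IR than in SHAM, Ly6c2 overlaps, and the other 7 genes lie higher in every IR library.

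The program around Trem2 was measured with 2 lists, with genes of the set left out. Of 25 tested genes of lipid-handling macrophages, 17 rose and 2 fell in IR+Decursin against SHAM (median 0.71), where 17.5% of all tested genes were called upward and 11.8% downward. In IR 21 rose and 1 fell (median 1.19), where 25.3% and 21.7% of all genes were called. Among them were the vesicle protein gene Vat1 (1.01 ± 0.11 in IR+Decursin against SHAM, adjusted p = 6.52e-05), the integrin chain gene Itgax (2.27 ± 0.30, adjusted p = 0.000174), the lysosomal protease gene Ctsz (1.12 ± 0.17, adjusted p = 0.000373) and the phagocytic receptor kinase gene Axl (0.53 ± 0.09, adjusted p = 0.000672). Of 14 genes of Trem2 signalling, 10 rose in IR+Decursin against SHAM (median 1.07) and 12 in IR (median 1.72), and none fell. They included the lipid kinase gene Pik3cd (1.14), its adaptor gene Pik3ap1 (2.03, all log2 in IR+Decursin against SHAM, as below), the exchange factor gene Vav1 (1.76) and the membrane protein gene Ms4a6d (2.32). Neither list had a called gene in IR+Decursin against IR.

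Calls among partners of osteopontin and of the galectins were mostly upward against SHAM. Downward calls were near the share of all tested genes for osteopontin partners, and none of the 8 tested genes of the galectin list had one. Nothing is read from that contrast between the lists. Of 13 tested genes of osteopontin receptors and processing, 9 rose and 1 fell in IR+Decursin against SHAM (median 0.77), and 9 rose and 3 fell in IR (median 1.03), where all tested genes had 17.5% upward and 11.8% downward calls in IR+Decursin, and 25.3% and 21.7% in IR. The integrin genes Itgb3 (1.86), Itgb5 (0.40) and Itga4 (1.57) and the hyaluronan and osteopontin receptor gene Cd44 (1.93) rose in IR+Decursin against SHAM. The integrin gene Itgb6 fell (-0.90, adjusted p = 0.00607, and -1.2 in IR), and Itga9 (-0.66) and Itga8 (-0.91) were lower in IR; these 3 were named after their values were seen. Of 8 tested genes of the galectin family and its partners, 6 rose in each injured group, with medians of 0.50 in IR+Decursin and 0.74 in IR. These included the secreted galectin ligand gene Lgals3bp (1.14), the amino acid transporter chain gene Slc3a2 (0.39), Lgals9 (0.57) and the efferocytosis receptor gene Mertk (0.61).

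Genes around arginase moved far less than Arg1. Of 14 tested genes of arginine and polyamine metabolism, 8 rose and 0 fell in IR+Decursin against SHAM (median 0.39), and 8 rose and 3 fell in IR (median 0.47). For comparison, 17.5% of all tested genes rose in IR+Decursin, and in IR 25.3% rose and 21.7% fell, a share like that of the 3 of 14. The list summed to 832 to 901 CPM in SHAM, 824 to 853 in IR and 821 to 873 in IR+Decursin. Its total level thus overlapped between all groups. Oaz1 and Oat, named after their values were seen, made up much of that sum. They averaged 281 and 268 CPM in SHAM, and 220 and 230 in IR. A rise in a low gene such as Pycr1 (0.751 CPM in SHAM, 4.30 in IR) hardly shows in the sum. Its genes with the smallest p were Ass1, which makes argininosuccinate (1.2 ± 0.17, adjusted p = 0.000238), the proline synthesis genes Aldh18a1 (0.89) and Pycr1 (2.31), and the arginine transporter gene Slc7a2 (1.18). Of 15 tested genes of alternative activation, 5 rose in IR+Decursin against SHAM (median 0.16) and 7 in IR (median 0.22), against the same shares of all genes, and none fell. Those that rose included the lectin receptor genes Clec10a (1.2) and Mrc1 (0.88), the transcription factor gene Myc (1.2) and the interleukin-4 receptor gene Il4ra (1.21). Retnla (-0.17), Ccl24 (-0.16), Mgl2 (0.03), Pparg (0.01), Klf4 (0.15), Ppard (0.11), Il13ra1 (0.13) and Cd163 (0.53) were called against SHAM in neither injured group. These were named after their values were seen.

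Of 24 tested genes of recruited monocytes, 19 rose in IR+Decursin against SHAM (median 1.61) and 22 in IR (median 2.36), and none fell. Upward calls over all tested genes were 17.5% and 25.3%. The chemokine receptor gene Ccr2, which draws monocytes out of the marrow, was at 3.81 ± 1.77 CPM in SHAM, 44.3 ± 19.3 in IR, and 25.0 ± 13.8 with decursin after IR (2.73 ± 0.45 in IR+Decursin against SHAM, adjusted p = 0.000713). The calcium-binding protein gene S100a4 (1.91), the fibronectin gene Fn1 (3.25) and Spi1, which encodes PU.1 (1.51), rose as well. S100a6 was at 0 counts in SHAM and was not tested, and nothing is read from that. Of 15 resident cardiac macrophage markers, 9 rose in each injured group (1 fell in IR), with medians of 0.59 in IR+Decursin and 0.67 in IR. Cd209f (2.55), Mrc1 (0.88, also in the alternative activation list), Maf (0.81) and Igf1 (0.93) were those with the smallest p. Timd4 (-0.22), Lyve1 (0.47), Cd163 (0.53), Cbr2 (0.27) and Ednrb (0.16) were called against SHAM in neither injured group. These were named after their values were seen.

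Other cells can also make some of these genes, and their markers were counted the same way, beside 17.5% upward and 11.8% downward calls over all tested genes in IR+Decursin against SHAM (25.3% and 21.7% in IR). Neutrophils express Chil3 and Plac8. The 15 neutrophil markers summed to 3.14 to 65.3 CPM in SHAM, 32.6 to 298 in IR and 6.96 to 143 in IR+Decursin, and 4 of 9 tested rose in IR+Decursin against SHAM (6 in IR), among them the lipocalin gene Lcn2 (2.73) and the gelatinase gene Mmp9 (3.39), with the granule protease gene Elane at 0 in SHAM. Capillary endothelium expresses Fabp5 and Ly6c1. Its 12 markers summed to 4098 to 4617 CPM in SHAM, 3278 to 4254 in IR and 3234 to 4545 in IR+Decursin, with Ly6a alone rising (0.32, adjusted p = 0.0492) and none falling in IR+Decursin against SHAM (1 rose and 4 fell in IR). Of 12 activated fibroblast markers 7 rose, such as the collagen gene Col3a1 (3.61), and none fell in IR+Decursin against SHAM (9 rose and 1 fell in IR). Of 9 tested dendritic cell markers 3 rose (7 in IR), and of 10 tested lymphocyte markers 5 rose (7 in IR), with a summed level of 2.18 to 3.07 CPM in SHAM and 3.95 to 10.9 in IR+Decursin. Of 12 cardiomyocyte markers 6 fell in IR+Decursin against SHAM, and 12 fell in IR. Of 8 tested erythroid and liver genes 0 passed in IR+Decursin against SHAM, and 2 rose in IR. The part of these cells in the levels of the set was not tested.

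Deviations from the group means, over 18 libraries, described which genes varied together. The correlation r was 0.93 between Gpnmb and both Spp1 and Lgals3, 0.90 between Spp1 and Lgals3, and 0.84 between Trem2 and both Spp1 and Lgals3. Arg1 had its highest values with Plac8 (0.82) and Trem2 (0.71), and lower ones with Gpnmb (0.43) and Lgals3 (0.47). Ly6c2 varied with Plac8 (0.81), and Cd9 had values of 0.13 to 0.64 with the others. Spread differed between groups, with an SD of log2 CPM for Arg1 of 3.14 in IR+Decursin, 1.52 in IR and 0.72 in SHAM. For Plac8 it was 2.40, 0.71 and 0.82. Values of r for such genes therefore rest mostly on the treated hearts, among them the low IR+Decursin 5 and IR+Decursin 6. The points share library depth and composition, so these are descriptions without a test.

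Over 11888 candidate genes, those most like Trem2 by this measure were Cd300c2 (0.97), a myeloid receptor gene, Mpeg1 (0.96), the macrophage perforin gene, Pik3ap1 (0.95), the complement receptor gene C3ar1 (0.95) and the actin-binding gene Cotl1 (0.94). Those most like Arg1 were Marcksl1 (0.93), F10 (0.89), the gene of clotting factor X, the kinase genes Prkcd (0.89) and Ikbke (0.88), and Rbbp8 (0.88), a DNA end resection gene. For Ly6c2 they were Oasl1 (0.92), Bax (0.92), Ly6e (0.91), Irf7 (0.91) and Trim30a (0.91). Irf7 encodes a transcription factor of the interferon response, and Oasl1, Ly6e and Trim30a are interferon-induced. None of these 15 genes belonged to the set.

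Levels between genes were compared per gene length, as FPKM (counts per kilobase and per M counts). In SHAM, Fabp5 (38.3 ± 6.78) and Cd9 (32.4 ± 4.38) stood above the other 8 genes, whose means ran from 0.0327 for Arg1 to 2.26 for Spp1. Neither Fabp5 and Cd9 nor Spp1, Lgals3 and Trem2 could be ordered beyond their spread. In IR, Spp1 led at 156 ± 124, ahead of Fabp5 (86.2 ± 27.3), Lgals3 (67.1 ± 40.5), Cd9 (50.3 ± 6.21), Arg1 (38.7 ± 34.6), Trem2 (21.6 ± 8.69), Gpnmb (21.1 ± 13.4), Chil3 (18.7 ± 16.9), Ly6c2 (6.72 ± 6.00) and Plac8 (6.09 ± 3.86). Each gene's range in IR overlapped that of the next in this order. In IR+Decursin, Spp1 (63.6 ± 80.9) and Fabp5 (60.1 ± 25.2) led with overlapping ranges, and Spp1 was above Fabp5 in 2 of 6 hearts, against 4 of 6 in IR. Chil3 (9.71 ± 9.79), Arg1 (9.24 ± 7.78) and Gpnmb (7.86 ± 8.85) could not be ordered beyond their spread.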

How the data were processed

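Per the labels, RNA of 18 hearts was sequenced, each from its own mouse. Raw counts by gene symbol and FPKM values (scaled to gene length and library total) were deposited by the authors. Per the submitters' processing notes, fastp, HISAT2 and HTSeq were used with build GRCm39. Neither the strand setting nor the handling of multi-mapping reads is stated. The count test was that of edgeR 4.0.16, run in R 4.3.3 (filterByExpr by group, TMM factors, 1 robust quasi-likelihood fit over 3 groups with 15 residual degrees of freedom, two-sided F-tests, Benjamini-Hochberg adjustment over 15088 genes, calls under 0.05). SE is the log2 fold change divided by the root of F. CPM and log2 CPM (prior count of 2) use TMM factors. The fit recovered 86 of 100 simulated 2-fold and 98 of 100 simulated 4-fold changes in IR against SHAM over 14689 genes, with 15 false calls. The changed genes had SHAM means over 1 CPM, unlike Arg1, Chil3, Ly6c2 and Plac8. Changes in IR+Decursin were not simulated.

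The genes, the 16 marker and pathway lists and the motifs were chosen with earlier results of these data known. Named were the 10 genes, from each list up to 4 genes with the smallest p in IR+Decursin against SHAM, the 5 genes most like Trem2, Arg1 and Ly6c2 (mean of at least 2 CPM in the highest group, no gene models), and Ly6c1 and Chil1 as relatives (Chil4 was not analysed here). For the lists of other cell types the text names fewer genes. No other value columns were present or left out. Alternatives were DESeq2 1.42.0, limma 3.58.1 (voom with quality weights, or log2(FPKM + 1) and log2(FPKM + 0.1)), RLE and total-count scaling, other filters, fits of 2 groups, the replicate number as a block, and fits without single libraries or without those with over 1000 Xist counts.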

Additional observations from a re-analysis of the deposited data

Results flagged for a closer look

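In 2 of 30 sets of 6 libraries (10 genes in 3 groups, on log2 CPM), 1 library lay far from the other 5 by Dixon's criterion, which chance meets in about 1 of 20. Chil3 was at 0.272 CPM in IR+Decursin 6, against 8.45 to 38.3 CPM in the other treated hearts. Lgals3 was at 1.87 CPM in SHAM 4, against 3.23 to 3.77 CPM in the other SHAM hearts.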

How the results depend on the processing

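Of the 10 genes, 7 to 10 were called upward in IR+Decursin against SHAM under the 12 other settings. With any 1 library left out, 8 were. Over all genes, calls in either direction ran from 3706 to 5264 under the other settings, and from 3461 to 5130 with 1 library left out. Among the 10 the count was 7 where only these 2 groups were fitted, since Arg1 did not pass the filter there. It was also 7 with voom and quality weights. In IR+Decursin against IR, 0 of the 10 were called under the 12 other settings, and 0 to 3 with 1 library left out, the 3 without IR+Decursin 1. Over all genes that comparison had 0 calls, 417 with DESeq2, and 0 to 976 with 1 library left out (976 without IR+Decursin 1 and 2 without IR+Decursin 4). The cause was not tested. In IR, 9 of 10 genes lay wholly above SHAM, and 10 with total counts, with FPKM or without SHAM 2. Of all 15088 tested genes, 2321 did in the main fit, 4233 with total counts and 4232 with FPKM. Without SHAM 2, 2432 of 15246 did. With the replicate number as a block, 8 and 0 of the 10 genes were called in IR+Decursin against SHAM and against IR, and no call among the 10 changed. The numbers do not pair the animals: 3 of 18 same-numbered pairs had a correlation of deviations over 0.1 (range -0.40 to 0.31), and 3 of 18 libraries were most like one of their own number. A pseudocount of 1 FPKM lowered the log2 fold changes of genes near 0 in SHAM, as for Arg1 (4.70 in IR). Chil3 and Arg1 levels in SHAM rest on 34 and 9 counts, so their folds against SHAM are imprecise.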
